A study of Rattus norvegicus with 88 samples.

Results

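Of the 17123 genes in the table, 6 genes known from the brain's coverings and ventricles were followed in the orbitofrontal cortex (OFC), 5 genes of the meninges and Ttr of the choroid plexus. Col1a1 (ENSRNOG00000003897) and Col1a2 (ENSRNOG00000011292) encode the alpha chains that are wound together into type I collagen. Col3a1 (ENSRNOG00000003357) encodes the chain of type III collagen. Dcn (ENSRNOG00000004554) encodes decorin, a small proteoglycan that binds collagen fibrils. Igf2 (ENSRNOG00000020369) encodes insulin-like growth factor II, which in the adult brain comes largely from the meninges, choroid plexus and vessels. Ttr (ENSRNOG00000016275) encodes transthyretin, a carrier of thyroid hormone and retinol-binding protein. The genes were chosen as known transcripts of these tissues and not by their measured values, though earlier results of these data were known.

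The brain is wrapped in the meninges, sheets of connective tissue in which fibroblasts lay down collagen, and it holds the choroid plexus, an epithelium in the ventricles that makes cerebrospinal fluid. Neurons and glia of the cortex make little of the fibrillar collagens, so their transcripts in a piece of cortex are often read as a measure of how much covering tissue came with it. Ttr is read in the same way for the choroid plexus.

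The libraries came from naïve Heterogeneous Stock (HS) rats, an outbred stock that descends from inbred strains, and no rat received a behavioral or drug treatment. Bilateral OFC was picked with forceps from frozen cryosections, and polyadenylated RNA was sequenced in bulk. Of 88 samples labelled, 8 were marked as removed (4 for low read count, 2 as expression outliers, 2 for genotype mismatch) and were not analysed here, leaving 80 libraries from 41 males and 39 females. The labels gave each rat a batch number. There were 15 rats in batch 2 (11 male, 4 female), 22 in batch 3 (10 male, 12 female), 26 in batch 4 (12 male, 14 female) and 16 in batch 6 (8 male, 8 female), beside 1 female in batch 5. The labels do not say what set the batches apart, and the study's methods give a mean age for each sex but not for each batch. The rats of a batch are separate animals, so the errors below are biological and technical together. The deposited table also had an order of its own. Its columns ran in 3 stretches, within each of which the column names ascended, with 21, 13 and 46 libraries. All rats of batches 4 and 6 lay in stretch 3, 14 of the 15 of batch 2 in stretch 1, and batch 3 was spread over the 3 stretches with 7, 12 and 3 rats. What the stretches stand for is not given in the sources used here.

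Values are normalized counts, estimated read counts scaled by the authors to a common upper quartile, and log2 values are log2(normalized count + 1), which understates changes of low counts. Depth, recovered from the values, lay between 5.67 and 25.6 M reads a library (M is mega). Gene lengths were not used here, so levels are compared between rats for 1 gene and not between genes. In bulk tissue a smaller amount of a cell type and less RNA per cell cannot be told apart, which holds for each value below.

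The sequences before the transcription start are shown for Col1a2 and Igf2, 2 genes of the meningeal group that differed in how closely they followed Col1a1 and Col3a1. They were taken from RefSeq on assembly GRCr8, which is not the build that the submitters' processing notes name (Rnor_6.0). RefSeq promoter sequences were matched for 3 of the 6 genes, Col1a2, Igf2 and Ttr, and not for Col1a1, Col3a1 and Dcn. Capitals mark matches to 3 motifs, searched on both strands in the 250 bases before the start. The TATA box was searched as TATAAA. The CCAAT box reads ATTGG where it lies on the other strand. The GC box was searched as GGGCGG. None of the marked matches overlap.
Col1a2, chr4:33518307-33518406, plus strand: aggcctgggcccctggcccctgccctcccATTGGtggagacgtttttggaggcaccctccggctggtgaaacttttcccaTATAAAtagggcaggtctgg
Igf2, start 2 of 2, chr1:207250526-207250625, minus strand: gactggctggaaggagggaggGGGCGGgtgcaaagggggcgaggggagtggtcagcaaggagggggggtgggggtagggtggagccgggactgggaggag

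In the Col1a2 window the TATA letters began 170 bases before the annotated start and the CCAAT letters, on the opposite strand, 221 bases before it. In the Igf2 window the GC box letters began 129 bases before the start. In the 250 bases before the start of 33469 rat promoters, 12.9% held TATAAA, 34.02% held CCAAT and 30.5% held GGGCGG on either strand. These letters are thus common. The printed windows hold 100 of those 250 bases. None of the 3 motifs was found before start 1 of Igf2 or before the start of Ttr.

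Transcripts of the meningeal genes were found in most OFC libraries, and their levels ranged widely from rat to rat. Col1a1 ran from 36 to 1129 normalized counts with a median of 238 over the 80 rats. Col3a1 ran from 43 to 1363 with a median of 302. Igf2 ran from 83 to 3159 with a median of 508.5, and Dcn from 122 to 776 with a median of 260. The highest rat thus had 31.4 times the Col1a1 of the lowest. Col1a2 ran from 0 to 872 with a median of 144.5 and was at 0 in 2 rats. Ttr was low, with a median of 13. Its highest rat stood at 7.49 on the log2 scale and the next at 121 normalized counts. It was at 0 in 4 rats and rested on 3 recovered reads or fewer in 12, and a count of 0 in those 4 libraries allows up to 2.31 to 3.61 normalized counts (3 reads, counting error only).

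Once rat batch and sex were taken out, each of the 6 genes varied more than most genes of like level. The residual SD of log2 values was 0.79 for Col1a1, 0.79 for Col3a1, 0.91 for Igf2, 0.54 for Dcn and 1.70 for Col1a2. The median SD of genes within 0.5 log2 units of each gene's mean level was 0.21, 0.19, 0.17, 0.20 and 0.27, in that order. Col1a1 lay at percentile 98.9 of such genes, Col3a1 at 99.2, Igf2 at 99.6, Dcn at 97.9 and Col1a2 at 99.7. Ttr had an SD of 1.37 at percentile 93.1, among genes of low count whose median SD was already 0.70. No gene of the 6 had a correlation with depth that passed the threshold after adjustment. By Pearson's r over the 80 rats the correlation with log2 depth farthest from 0 was that of Ttr, with r = -0.27 (permutation p = 0.0246, adjusted p = 0.148 over 6 genes), Spearman rho = -0.15 (permutation p = 0.184, adjusted p = 0.368) and r = -0.15 without the 2 rats farthest from the median. For Col1a2 these were r = 0.19 (permutation p = 0.0997, adjusted p = 0.299), rho = 0.19 (permutation p = 0.0999, adjusted p = 0.325) and r = 0.25.

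The first question was how the levels differ between rat batches. Batch 6 was low in the collagens and Igf2, and batch 2 was low in Ttr. By limma's moderated F test with sex as covariate, 3 of the 6 genes differed across batches 2, 3, 4 and 6. These were Col1a1 (adjusted p = 0.0138), Igf2 (adjusted p = 0.00126) and Ttr (adjusted p = 0.000244). The test called 64.7% of all genes, so 3 of 6 is no more than the table as a whole shows. Col1a2 (limma adjusted p = 0.0584), Col3a1 (0.0902) and Dcn (0.421) did not pass the threshold of 0.05.

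Igf2 showed the batch difference most clearly of the meningeal genes. The 15 rats of batch 2 ran from 351 to 1265 normalized counts with a median of 782, and the 22 rats of batch 3 from 356 to 1763 with a median of 624.5. The 26 rats of batch 4 ran from 99 to 3159 (median 567.5) and the 16 of batch 6 from 83 to 1124 (median 304.5). The median of batch 6 lay below the lowest rat of batches 2 and 3, although the ranges overlapped. Igf2 was lower in batch 6 than in batch 2 by 2.19-fold (log2 difference -1.13, SE 0.32, limma adjusted p = 0.00195). It was lower than in batch 3 by 2.18-fold (-1.12, SE 0.29, adjusted p = 0.00073) and than in batch 4 by 2.03-fold (-1.02, SE 0.28, adjusted p = 0.00863). With column stretch as a term, the differences from batch 2 (-0.77, limma adjusted p = 0.514) and batch 3 (-1.05, adjusted p = 0.28) did not pass. The difference from batch 4 was then -1.02 (limma adjusted p = 0.00809). Batches 4 and 6 lay wholly in stretch 3, so the term could not test that difference. Between batches 2, 3 and 4 the log2 differences of Igf2 were -0.01, -0.11 and -0.10.

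Col1a1 was also lowest in batch 6, by smaller differences. Batch 2 ran from 161 to 473 counts (median 241) and batch 3 from 145 to 618 (median 283.5). Batch 4 ran from 36 to 1129 (median 241) and batch 6 from 66 to 531 (median 150.5). Batch 6 overlapped each of the other batches, and batch 4 held both the highest and the lowest rat of the study. Col1a1 was lower in batch 6 than in batch 3 by 1.79-fold (log2 -0.84, SE 0.25, limma adjusted p = 0.00366), than in batch 2 by 1.64-fold (-0.71, SE 0.28, adjusted p = 0.0249) and than in batch 4 by 1.63-fold (-0.71, SE 0.24, adjusted p = 0.0404). With the stretch term, the differences from batch 3 (-0.52, limma adjusted p = 0.59) and batch 2 (-0.24, adjusted p = 0.843) did not pass. The difference from batch 4, which the term could not test, was then -0.71 (limma adjusted p = 0.039).

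Col3a1 and Col1a2 passed the test against 1 batch each. Col3a1 ran from 187 to 561 counts in batch 2 (median 300), 134 to 870 in batch 3 (median 319.5), 43 to 1363 in batch 4 (median 325) and 100 to 491 in batch 6 (median 199). Col3a1 was lower in batch 6 than in batch 3 by 1.51-fold (log2 -0.59, SE 0.25, limma adjusted p = 0.0427). The differences from batch 4 (-0.62, adjusted p = 0.0734) and batch 2 (-0.44, adjusted p = 0.178) had the same sign and did not pass. Col1a2 lay between 35 and 542 counts in batch 2 and between 0 and 593 in batch 3. It lay between 18 and 872 in batch 4 and between 4 and 329 in batch 6. Its medians on the log2 scale were 7.38, 7.02, 7.50 and 6.26 in that order, and the ranges overlapped. Col1a2 was lower in batch 6 than in batch 2 by 2.81-fold (log2 -1.49, SE 0.60, limma adjusted p = 0.0295). It did not pass against batch 4 (-1.33, SE 0.52, adjusted p = 0.0753) or batch 3 (-0.69, SE 0.54, adjusted p = 0.297). For Col3a1 the unadjusted limma p was 0.0124 against batch 4 and 0.0212 against batch 3. For Col1a2 it was 0.0129 against batch 4 and 0.0147 against batch 2. The adjustment was stricter against batch 4, where 13.6% of all genes were called, than against batch 3 (50.9%) or batch 2 (53.8%). Which batch passed thus does not show where the difference was clearest.

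Dcn, the proteoglycan, did not share this. Its log2 values lay between 7.11 and 8.63 in batch 2, 7.34 and 8.89 in batch 3, 6.94 and 9.25 in batch 4, and 7.49 and 9.60 in batch 6. The medians were 250, 265.5, 260 and 273.5 normalized counts in that order, and the ranges overlapped. None of the 6 pairs of batches passed the limma test for Dcn, and batch 6 minus batch 4 was 0.11 log2 units (SE 0.17, adjusted p = 0.711). The single rat of batch 5 had 99 normalized counts of Col1a1, 40 of Col1a2, 128 of Col3a1, 171 of Dcn, 398 of Igf2 and 11 of Ttr.

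**Figure D1:**
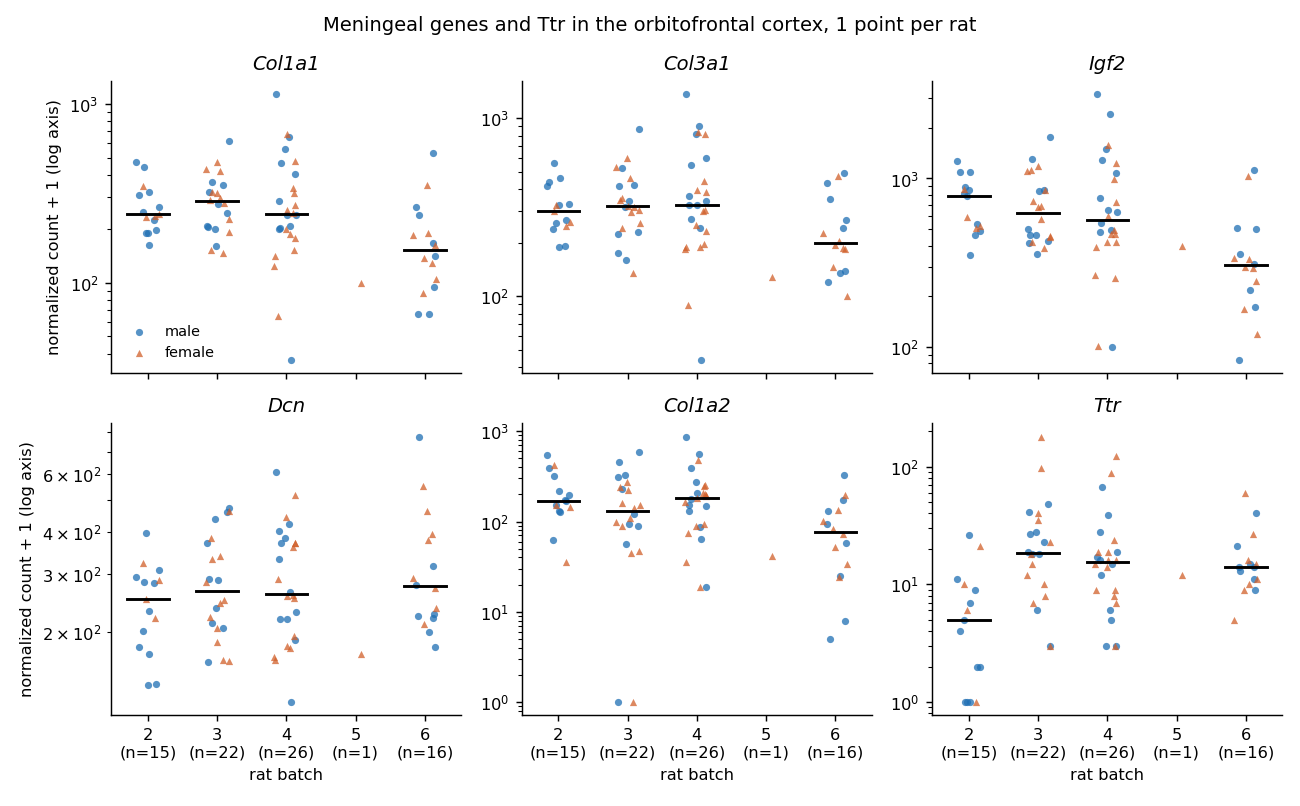
Normalized count plus 1 on a log axis for the 6 genes, 1 point per rat, by rat batch, with males as circles, females as triangles and a line at the median of each batch of more than 1 rat. Col1a1, Col3a1, Igf2 and Col1a2 have their lowest batch median in batch 6, Dcn has about the same median in each batch, and Ttr is lowest in batch 2.

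The counts of members in these pairs read against the table as follows. Against batch 4, batch 6 was lower in 2 of the 5 meningeal genes, where 7.49% of all genes were lower. Against batch 3 it was lower in 3 of 5, where 25.1% of all genes were, and against batch 2 in 3 of 5, where 26.6% were. With column stretch as a term, batch 6 was lower than batch 4 in the same 2 genes, Igf2 and Col1a1 (8.09% of all genes). Both batches lay wholly in column stretch 3, so the term could not test that difference. Against batch 3 (1.41% of all genes) and batch 2 (3.62%), batch 6 was then lower in 0 of 5 by limma. In these pairs 0 of 5 had an unadjusted p under 0.05. The calls of Col3a1 against batch 3 (-0.46, adjusted p = 0.647) and of Col1a2 against batch 2 (-1.85, adjusted p = 0.365) were among those lost. Batch 2 has no rat in stretch 3, so its difference from batch 6 and that between stretches can be set apart only through batch 3. The fit in stretch 3 alone compared the same rats of batches 6 and 4 with another estimate of the spread. In stretch 3 alone, Igf2 was lower in batch 6 than in batch 4 by 2.04-fold (log2 -1.03, SE 0.33, limma adjusted p = 0.0312) and Col1a2 by 2.51-fold (-1.33, SE 0.44, adjusted p = 0.0381). Col1a1 had a difference of -0.71 there (adjusted p = 0.0914) and Col3a1 of -0.63 (adjusted p = 0.125), where 6.73% of all genes were lower. Without batch 6 the F test lost Col1a1 (limma adjusted p = 0.842) and Igf2 (0.923).

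Ttr moved with the batches in another way. Batch 2 ran from 0 to 25 counts (median 4), batch 4 from 2 to 121 (median 14.5) and batch 6 from 4 to 59 (median 13). In batch 3 the lowest was 2, the median 17.5 and the second highest 97, below the highest rat of the study. The 4 rats at 0 were all in batch 2, though its highest rats overlapped with the other batches. Ttr was higher than in batch 2 by 4.35-fold in batch 3 (log2 2.12, SE 0.45, limma adjusted p = 0.000894), by 3.32-fold in batch 4 (1.73, SE 0.44, adjusted p = 0.000642) and by 3.47-fold in batch 6 (1.80, SE 0.48, adjusted p = 0.00115). It was the 1 gene of the 6 called between batches 2 and 3, where 4.56% of all genes were higher in batch 3. In batches 4 and 6, 24.5% and 27.2% of all genes were higher than in batch 2. Batches 3, 4 and 6 did not differ from each other in Ttr past the threshold. The size depends on the scale at such low counts, since with a pseudocount of 10 the largest batch difference of Ttr was 1.01 log2 units (limma adjusted p = 0.00688), and with voom weights 2.52 (adjusted p = 0.00128).

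The Ttr difference followed the column stretches more closely than the batches. In stretch 1 the lowest, median and highest Ttr counts were 0, 5 and 25 (n = 21), and in stretch 3 they were 2, 14 and 121 (n = 46). In stretch 2 the lowest was 9 and the median 27 (n = 13), and the highest rat of the study was among them. Stretch took up 39.6% of the variance of log2 Ttr, and rat batch 25.5%. At the median of genes with a mean log2 value of at least 3, stretch took up 16.7% and rat batch 22.1%. Batch 3 has rats in each stretch and so shows the stretch apart from the batch. Its 7 rats of stretch 1 had 2, 6 and 17 (lowest, median, highest), and its 3 of stretch 3 had 14, 17 and 18. Its 12 rats of stretch 2 had a lowest count of 9, a median of 30.5 and a second highest of 97. The 2 sets of 7 and 12 overlapped between 9 and 17. Inside batch 3, Ttr was higher in stretch 2 than in stretch 1 by 5.72-fold (log2 2.52, SE 0.46, limma adjusted p = 0.0112), and by 2.32 log2 units with depth in the model (adjusted p = 0.0428). This comparison was chosen after the Ttr values were seen. It called 1.90% of all genes, and 1.02% as higher in stretch 2. The other 5 genes had adjusted p-values from 0.402 to 0.924 in it. With stretch as a term, Ttr did not differ between rat batches (limma adjusted p = 0.631). Within stretch 1, batches 2 and 3 differed in Ttr by 0.66 log2 units (SE 0.70, limma adjusted p = 0.642). Most rats of batch 2 lie in stretch 1, so the low Ttr of that batch and of that stretch cannot be told apart outside batch 3.

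**Figure D2:**
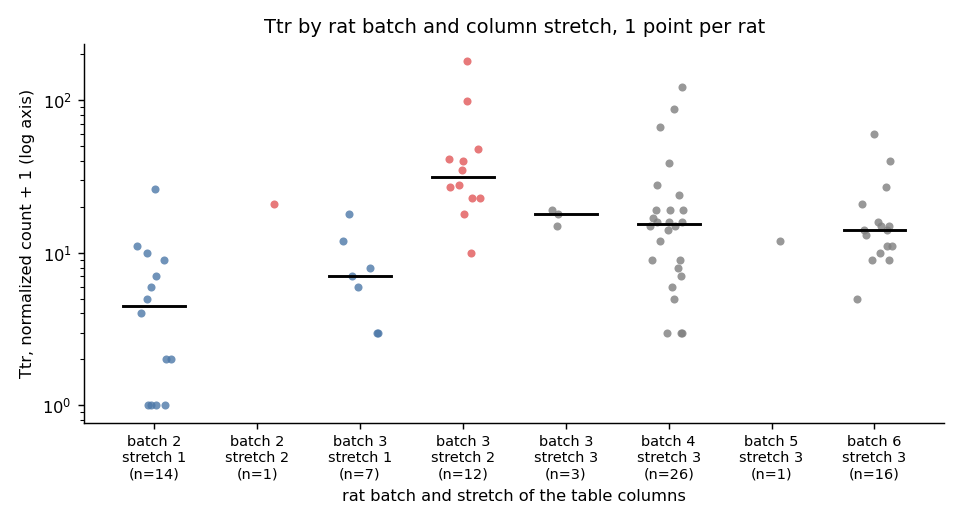
Ttr as normalized count plus 1 on a log axis, 1 point per rat, by rat batch and by the stretch of table columns (blue for stretch 1, red for 2, grey for 3), with a line at the median where there is more than 1 rat. In batch 3 the 12 rats of stretch 2 had a median of 30.5, against 6 in the 7 rats of stretch 1.

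The next question was whether the sexes differ. None of the 6 genes differed between males and females in limma with rat batch as a factor, where 0.117% of all genes did. Col1a1 ran from 64 to 676 in females (median 231) and from 36 to 1129 in males (median 239). Igf2 had medians of 468 in females and 540 in males, and the difference, male minus female, was 0.29 log2 units (SE 0.20, adjusted p = 0.821). It was 0.13 (SE 0.18) for Col1a1, 0.22 (SE 0.38) for Col1a2, 0.23 (SE 0.18) for Col3a1, -0.01 (SE 0.12) for Dcn and -0.23 (SE 0.31) for Ttr, and limma's adjusted p lay between 0.821 and 0.997. The sex difference was not shown to vary with the batch. limma's interaction test called 0 genes, with 451 of 17123 at an unadjusted p under 0.05. With voom weights it called 0 genes, and with robust regression 77, none of them among the 6. The 6 genes had unadjusted p from 0.388 to 0.879.

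The last question was whether genes of the same tissue go up and down together. Col1a1, Col3a1 and Igf2 did so almost in step, Dcn and Col1a2 followed more loosely, and Ttr was not tied to the others. After rat batch and sex were removed, Col1a1 and Col3a1 had Pearson r = 0.95 over the 80 rats (Spearman rho = 0.93), Col1a1 and Igf2 r = 0.92 (rho = 0.88), and Col3a1 and Igf2 r = 0.92 (rho = 0.89). Each had a permutation p of 1e-05, the smallest that 100000 permutations within batch can give, and an adjusted p of 3e-05 over the 15 pairs (2.5e-05 for rho). Without the 2 rats farthest from the median of the gene named first, r was 0.93, 0.90 and 0.90. The 3 genes were also tied within each batch, with r from 0.72 to 0.98 in 12 of 12 pairs and batches and a permutation adjusted p under the threshold in each.

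Col1a2 was tied to its partner chain Col1a1 by r = 0.47 (rho = 0.57), to Col3a1 by r = 0.52 (rho = 0.58) and to Igf2 by r = 0.44 (rho = 0.51), with permutation adjusted p of 3e-05, 3e-05 and 5e-05 (2.5e-05 for each rho). Leaving out the 2 rats farthest from the median of Col1a1 gave r = 0.45 for Col1a2 with Col1a1. Leaving out the 2 farthest in Col1a2 gave 0.50 with Col3a1 and 0.47 with Igf2. Within batches these r ranged from 0.32 to 0.68, and 5 of 12 passed the threshold. Dcn was tied to Col1a1 by r = 0.42 (rho = 0.34), to Col3a1 by r = 0.44 (rho = 0.35) and to Igf2 by r = 0.34 (rho = 0.25), with permutation adjusted p of 0.000581, 0.000279 and 0.0062 (0.00517, 0.00504 and 0.0447 for rho). Without the 2 rats farthest in Col1a1, r of Dcn with Col1a1 was 0.30. Without the 2 farthest in Col3a1, r with Col3a1 was 0.33, and without the 2 farthest in Dcn, r with Igf2 was 0.30. On log2 values with batch and sex left in, Dcn and Igf2 had r = 0.23 and did not pass (permutation adjusted p = 0.063). Within batches 3 of 12 passed, all in batch 4, where r with Col1a1 was 0.61. In batch 3 the same pair had r = 0.07. Col1a2 and Dcn had r = 0.28 (rho = 0.26, permutation adjusted p = 0.0201, 0.0376 for rho). Without the 2 rats farthest in Col1a2, r of this pair was 0.17 (permutation adjusted p = 0.253). Without the 4 rats that had fewer than 10 counts of Col1a2 it was 0.31 (permutation adjusted p = 0.0138), so the call turns on which rats are left out.

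Ttr had r between -0.04 and 0.02 with the other 5 genes (rho between -0.01 and 0.05, each permutation adjusted p = 0.891 for r and at least 0.863 for rho). Within batches its r ranged from -0.29 to 0.38, and 0 of 20 passed the threshold, with none at an unadjusted permutation p under 0.05. In all, 10 of the 15 pairs passed, each pair among the 5 meningeal genes, and none of the 5 pairs with Ttr.

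**Figure D3:**
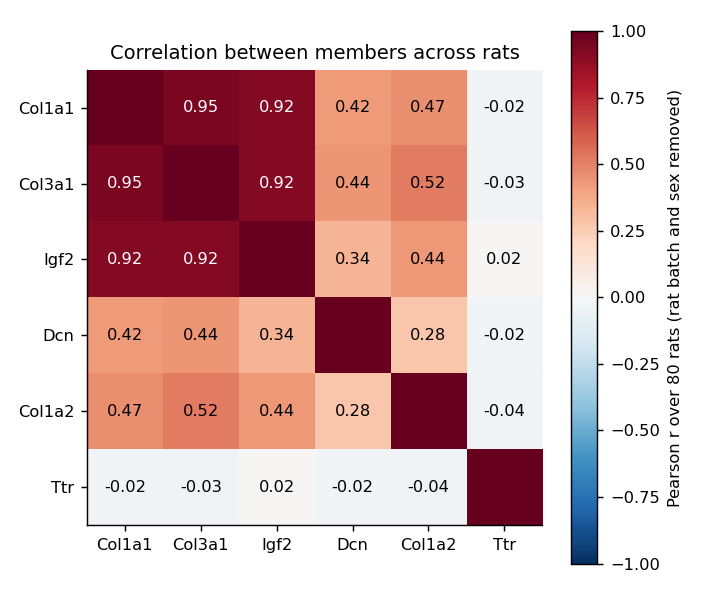
Pearson r between each pair of the 6 genes over 80 rats, after rat batch and sex were removed, from -1 (blue) to 1 (red). Col1a1, Col3a1 and Igf2 form a block at 0.92 to 0.95, Dcn and Col1a2 have 0.28 to 0.52 with the block and each other, and Ttr lies at -0.04 to 0.02.

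Among all 17122 other genes, Col3a1 ranked 2nd and Igf2 3rd in likeness to Col1a1, while Col1a2 ranked 558th and Dcn 738th. The gene most like each of Col1a1, Col3a1 and Igf2 was ENSRNOG00000013720, with r = 0.95, 0.95 and 0.93. Its counts ran from 70 to 1149 with a median of 330.5, and its median was 179.5 in batch 6 against 364, 411.5 and 348 in batches 2, 3 and 4. With r of at least 0.8 and the 6 genes themselves left out, 32 genes went with Col1a1, 35 with Col3a1 and 32 with Igf2, and 25 went with all 3. None of the 17122 reached r of even 0.6 with Col1a2, Dcn or Ttr. A principal component of the table computed without the 6 genes, component 2 with 4.07% of all variance, held 43.8% of the variance of Col1a1, 38.1% of Col3a1 and 42.0% of Igf2. It held 13.6% of Col1a2, 1.86% of Dcn and 2.14% of Ttr, and 3.47% at the median of genes with a mean log2 value of at least 3. These are descriptions over the same 80 rats.

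The same rats therefore stood at the ends of several genes. Male replicate 20 of batch 4 was the highest rat in Col1a1 (1129), Col1a2 (872), Col3a1 (1363) and Igf2 (3159) and ranked 2nd in Dcn (606), and its Ttr was 16. Male replicate 15 of batch 4 was the lowest in Col1a1 (36), Col3a1 (43) and Dcn (122) and had 99 counts of Igf2. Of the 10 rats highest in Col1a1, 9 were among the 10 highest in Igf2, 8 in Col3a1, 7 in Col1a2, 3 in Dcn and 1 in Ttr. The rat highest in Ttr, female replicate 21 of batch 3, had 298 counts of Col1a1, near the median of its batch. The next in Ttr were female replicate 22 of batch 4 with 121 and female replicate 23 of batch 3 with 97.

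**Figure D4:**
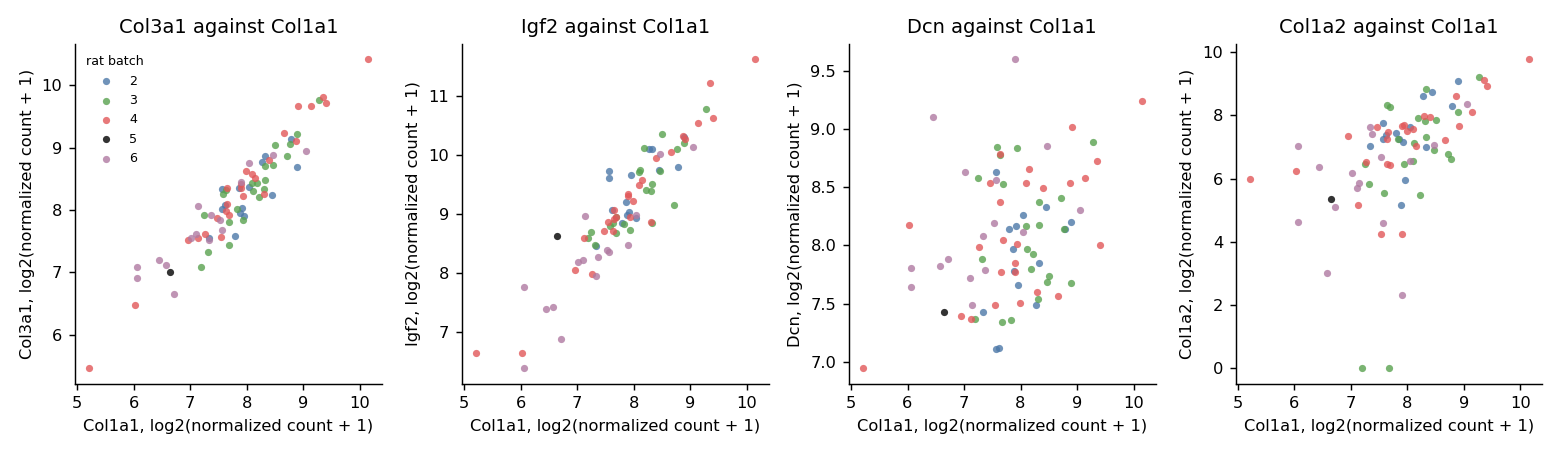
log2(normalized count + 1) of Col3a1, Igf2, Dcn and Col1a2 against that of Col1a1, 1 point per rat, coloured by rat batch. Col3a1 and Igf2 lie along a line, Dcn scatters, and Col1a2 has rats far below the rest, including 2 at 0.

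Dividing each gene by Col1a1 within a rat shows where the genes part. The log2 ratio of Col3a1 to Col1a1 ran from -0.24 to 1.02 (SD 0.28, n = 80), and 80 of 80 rats lay within 1 log2 unit of the median. For Igf2 the SD was 0.40 with 79 of 80 within 1 unit, and for Dcn 0.82 with 63 of 80. For Col1a2 the SD was 1.51, with 59 of 80 within 1 unit and 9 rats more than 2 units below the median, against 0 more than 2 units above it. Male replicate 2 of batch 3 had 0 counts of Col1a2 with 204 of Col1a1 and 173 of Col3a1. Female replicate 13 of batch 3 had 0 counts of Col1a2 with 145 of Col1a1. A count of 0 allows up to 5.24 and 3.72 normalized counts in these libraries, so their ratio was at most -5.04 and -4.95. Male replicates 2 and 16 of batch 6 had 4 and 7 counts of Col1a2 with 239 and 94 of Col1a1. Leaving out these 4 rats raised r of Col1a2 with Col1a1 from 0.47 to 0.57. Why the partner chains of 1 protein part in these rats was not tested.

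The ratios also differed between batches. Dcn over Col1a1 had mean log2 values of -0.13 ± 0.49, -0.01 ± 0.73, 0.14 ± 0.83 and 0.95 ± 0.81 (SD, n = 15, 22, 26 and 16) in batches 2, 3, 4 and 6, and differed between batches (permutation of batch within sex, p = 0.0004, adjusted p = 0.0016 over the 4 ratios). Igf2 over Col1a1 was 1.42 ± 0.40, 1.25 ± 0.37, 1.28 ± 0.29 and 0.97 ± 0.45 in batches 2, 3, 4 and 6 (SD, permutation adjusted p = 0.0159). Col3a1 over Col1a1 was 0.24 ± 0.31, 0.24 ± 0.26, 0.40 ± 0.18 and 0.49 ± 0.33 (SD, permutation adjusted p = 0.0144), and Col1a2 over Col1a1 did not pass (permutation adjusted p = 0.16). Batches 4 and 6, both wholly in column stretch 3, differed in Dcn over Col1a1 and in Igf2 over Col1a1 (permutation adjusted p = 0.0106 for each). They did not pass in Col3a1 over Col1a1 (permutation adjusted p = 0.314). Batch 6 was thus lower in Igf2 and higher in Dcn for its Col1a1 than batch 4. Dcn alone did not differ between batches (limma adjusted p = 0.421), so its ratio largely restates the low Col1a1 of batch 6. How many of all genes differ between batches as a ratio to Col1a1 was not tested.

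**Figure D5:**
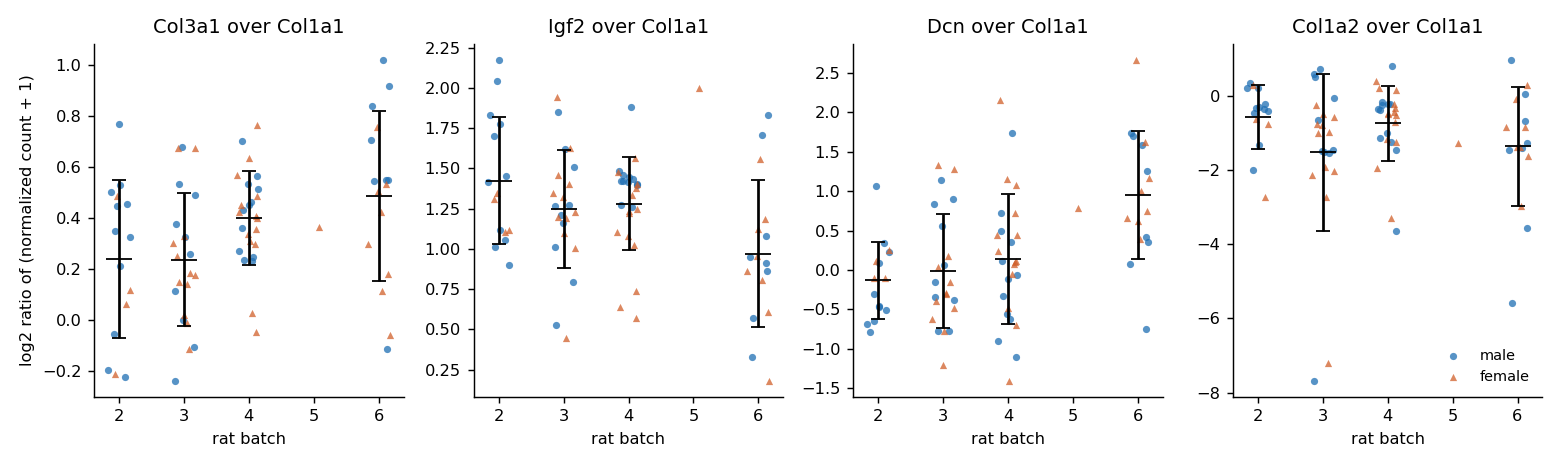
Log2 ratio of Col3a1, Igf2, Dcn and Col1a2 to Col1a1, each as normalized count plus 1, by rat batch, 1 point per rat (males circles, females triangles), with mean and SD for batches of more than 1 rat. Dcn over Col1a1 had its highest mean in batch 6 (0.95) and Igf2 over Col1a1 its lowest (0.97).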

How the data were processed

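The genes were chosen with earlier results of these data known. Per the labels and the methods of the study, the authors ran cutadapt on single-end reads, estimated gene counts with RSEM against Ensembl transcripts of the rat, and scaled them by upper quartile in DESeq2. They then removed low genes, added 1 and took log2. The deposited log2 values, less the pseudocount of 1, were whole numbers within 3.98e-06 relative error. Depth was recovered from the steps between values in each library, a step being what 1 read is worth. Of the values above 0 and up to 300, 99.7% to 100% were whole reads at that step. At a step of 1 or less every whole number is so, and the median step was 1.01. The step stood out clearly from others (log-likelihood gap over 10) in 78 of 80 libraries. Reads carried no molecular identifiers.

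Models used limma 3.58.1 (lmFit, eBayes with trend, R 4.3.3) on all 17123 genes, with Benjamini-Hochberg adjustment and a threshold of 0.05. Rat batch was tested in batches 2, 3, 4 and 6 with sex as covariate, and sex with batch as a factor. Correlations used residuals and 100000 two-sided permutations within batch (numpy 2.4.6, scipy 1.17.1). The models and correlations were tested on simulated data. The interaction test recovered 84% of planted changes of 1 log2 unit and 34.5% of those of 0.5. The simulated rat-to-rat noise was smaller than the residual SD of the 6 genes (0.54 to 1.70), so these shares do not measure the power for them. All 6 genes were named, beside the gene most like each, of which 1 identifier is printed. The Ensembl identifiers matched 0 of the RefSeq gene table, so lists of further marker genes were not looked up, and other cell types were not assessed. The symbols of the 6 genes came with the gene list.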

Additional observations from a re-analysis of the deposited data

Results flagged for a closer look

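Log2 values were used in each rat batch, sex and gene with 4 to 10 rats. The distance of the highest and the lowest rat from its neighbour was set against the range of the group (Dixon's criterion). Of 24 such groups 3 had a rat that stood apart, where chance gives about 1 in 20. Female replicate 6 of batch 2 had 347 normalized counts of Col1a1, with the next female of the batch at 241. Male replicate 2 of batch 3 had 0 counts of Col1a2, with the next male at 56, a gap that the log2 scale widens. Male replicate 2 of batch 6 had 776 counts of Dcn, the highest of all 80 rats, with the next male of the batch at 315, and in the same rat Col1a2 was at 4.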

How the results depend on the processing

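Some batch calls changed with the setting, and there was no sex call among the 6 genes to lose. With the first 20 principal components as covariates, the limma adjusted p for rat batch was 0.637 for Col1a1, 0.875 for Igf2 and 0.907 for Ttr. That fit called 1 of all 17123 genes, against 11078 in the main fit, so the loss is not particular to these genes. Without batch 6 the adjusted p was 0.842 for Col1a1 and 0.923 for Igf2, and without batch 2 it was 0.608 for Ttr. With a column stretch term it was 0.116 for Col1a1 and 0.631 for Ttr (Igf2 stayed at 0.0288), where 3178 of all genes were called. Within stretch 1 it was 0.669, 0.718 and 0.642 for Col1a1, Igf2 and Ttr, where 333 of all genes were called. Within stretch 3 it was 0.181, 0.064 and 0.947, where 2357 were called. Col1a2 passed with no sex term (0.0494), pseudocount 10 (0.0305), quantile normalization (0.0442), robust regression (0.00752), a depth term (0.0353) and without batch 3 (0.00569), and its single-gene permutation p, unadjusted, was 0.0452. Col3a1 passed with robust regression (0.00984) and without batch 4 (0.0234). In the other 91 of the alternative batch tests the side of the threshold was the same. In 126 alternative sex tests and 60 interaction tests none passed (lowest limma adjusted p 0.61 and 0.951, lowest single-gene permutation p for sex 0.177). The 10 pairs past the threshold became 5 with 20 components removed, 3 within batch 2, 5 within batch 3, 3 within batch 6 and 4 within stretch 2, and 8 with batch and sex left in (Dcn and Igf2 adjusted p = 0.063, Col1a2 and Dcn 0.0814), 7 within stretch 1 and 9 within stretch 3. Signs turned for Col1a2 and Igf2 with 20 components removed (r = -0.0922), Dcn and Igf2 within batch 3 (-0.00762) and stretch 2 (-0.245), Col1a2 and Dcn within batch 6 (-0.270), and Col1a1 and Dcn within stretch 2 (-0.0597). The SD of Ttr was 0.81 with pseudocount 10. The causes were not tested, though tests within a batch or stretch hold fewer rats. Alternatives with column stretches, voom weights, sex within batch, ratios, and without rats low in Col1a2 were chosen after seeing the data. No paired analysis was possible because accession order set the replicate numbers. Low Ttr counts limit the precision of its differences.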
